A study of Arabidopsis thaliana with 3 samples.

Results

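The regions described here are DIG2-only summits: points of highest DIG2 ChIP-seq signal that lie in a peak interval shared with DIG1 but have no DIG1 summit nearby. They were chosen by measured values, namely the summit positions and interval bounds in the peak lists of both proteins. A DIG2 summit was taken when its interval overlapped a DIG1 interval by at least 1 base and no DIG1 summit lay within 150 bp. Of 16562 DIG2 summits, 989 met this rule. Another 12827 lay in shared intervals and had a DIG1 summit within 150 bp (paired summits), and 2746 lay in intervals that touched no DIG1 interval. The rule thus took 7.16% of the 13816 DIG2 summits of shared intervals, a share that the rule itself sets and from which nothing is read.

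DIG1 and DIG2 are related Arabidopsis thaliana proteins of a small plant family of transcription regulators that acts in the response to abscisic acid (ABA), the hormone of drought and seed dormancy. ABA is sensed by soluble receptors, which hold back PP2C phosphatases and so release SnRK2 kinases to activate bZIP transcription factors. ChIP-seq maps where a protein sits on chromatin: DNA fragments bound to it are precipitated and sequenced, a peak caller outlines each enriched interval, and where an interval contains several local maxima it records each of them as a summit. A summit is therefore the finest position that such a list gives, and a broad promoter interval can carry several.

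There were 3 samples, each from whole Col-0 seedlings aged 4 days that had grown in darkness in hydroponics and then received 10 uM dexamethasone for 6 h. They carried GFP alone (GFP control), a DIG1 fusion to GFP, or a DIG2 fusion to GFP, and all were precipitated with the same antibody to GFP. The promoter that drove the fusions and the number of plant lines are not given in the labels. The DIG1 list held 13459 summits, and no list of the GFP control was used here. With 1 list per protein there is no replicate, no test was made, and intervals (95%, Wilson) cover counting error only. Read depth is unknown, so the authors' fold enrichment and rank were compared only within a list.

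The DIG2-only summits were mostly weak side summits of intervals with 2 or more DIG2 summits. Their median DIG2 fold was 2.53 (quartiles 2.29 and 2.92), against 4.50 (3.31 and 6.57) for paired summits and 2.45 (2.27 and 2.72) for summits of intervals that touched no DIG1 interval. By −log10 p their median rank was 13434 of 16562. Of the 989, 870 (88.0%, 85.8 to 89.8%) were not the strongest summit of their own interval, and 915 (92.5%, 90.7 to 94.0%) lay in an interval with 2 or more DIG2 summits. Among paired summits these shares were 17.0% and 34.0%. The rule uses summit positions and interval bounds, so these contrasts are partly set by it. Their intervals had a median width of 1246 bp, against 724 bp for all paired summits. For the 2175 paired summits that were not the strongest of their interval, the median width was larger, 1599 bp, and the median fold was 4.18.

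**Figure D1:**
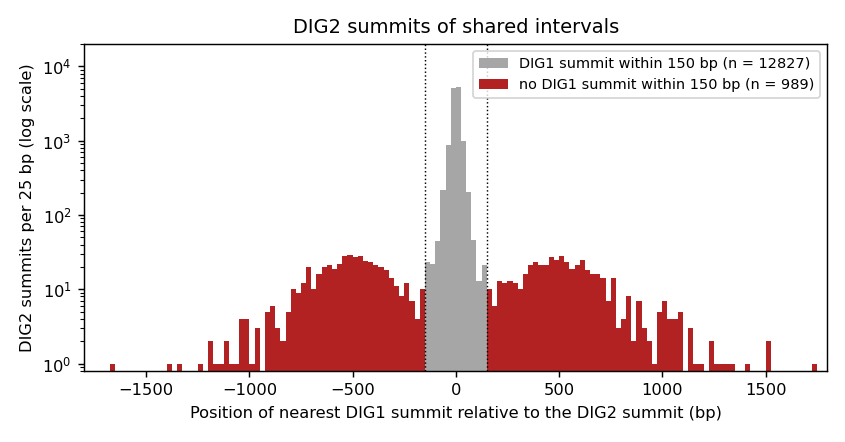
Position of the nearest DIG1 summit relative to each of the 13816 DIG2 summits of shared intervals, in bins of 25 bp with the number of summits on a log axis; dotted lines stand at 150 bp on either side. Paired summits (grey) form a narrow peak around 0, and the 989 DIG2-only summits (red) form shoulders on both sides with a median distance of 516 bp.

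The limit of 150 bp, which sets the ranges of both classes, fell in a sparse stretch of the distances to DIG1. Paired summits lay a median of 11 bp from a DIG1 summit (90th percentile 36 bp), and DIG2-only summits a median of 516 bp (quartiles 392 and 660 bp, highest 1725 bp). The 10 strongest DIG2-only summits, described below, were nearer to the limit, at 155 to 356 bp from a DIG1 summit. All but the one near CCX4 lay within 300 bp and would not meet the rule at that distance. In counts, 10424 DIG2 summits of shared intervals lay within 25 bp of a DIG1 summit, 78 lay more than 100 and up to 150 bp away, and 30 lay more than 150 and up to 200 bp away. Wider ranges held 89 (up to 300 bp) and 341 (from there up to 500 bp), so part of this rise comes from their width. Just outside the limit stood the summit 1725 bp from GA20OX3, a gibberellin 20-oxidase gene, at 151 bp (fold 7.14), a summit near IDA, the peptide gene of floral organ abscission, at 153 bp (fold 3.0), and one inside AT3G06890 at 153 bp (fold 2.92). Just inside it, at 150 bp each, were summits near SDH2-3 (fold 7.54) and ATL8 (fold 3.28) and one inside JAZ3 (fold 5.60).

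DIG2-only summits became more frequent toward the weak end of the DIG2 list. In the strongest decile of the list they made up 9 of 1657 summits (0.543%, 0.286 to 1.03%), and in decile 5 they made up 29 of 1656 (1.75%, 1.22 to 2.5%). In the weakest decile they made up 275 of 1657 (16.6%, 14.9 to 18.5%). Summits of intervals without any DIG1 overlap rose more steeply over the same range, from 0 in the strongest decile to 1040 of 1657 (62.8%) in the weakest. Across the 5 chromosomes the DIG2-only share of shared summits ranged from 6.88% on chromosome 5 to 7.49% on chromosome 4.

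**Figure D2:**
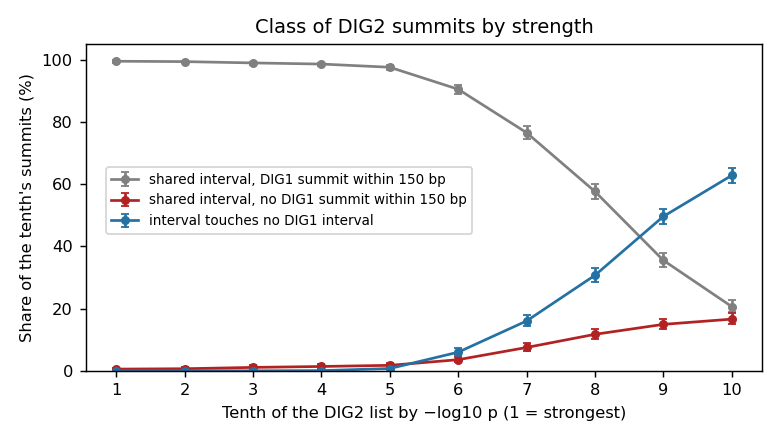
Share of each decile of the DIG2 list (1 is the strongest by −log10 p) that falls in each class, in percent; bars are 95% Wilson intervals. DIG2-only summits in shared intervals (red) go from 0.543% to 16.6%, while paired summits (grey) go from 99.5% to 20.6%.

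The number of summits in an interval also differed, which the rule partly sets. A summit far from every DIG1 summit can meet it only if its interval still reaches a DIG1 interval. Of 8535 shared intervals with a single DIG2 summit, 74 (0.867%, 0.691 to 1.09%) had theirs without a DIG1 partner. Where an interval held 2 summits, 572 of 3340 summits (17.1%, 15.9 to 18.4%) were DIG2-only, and where it held 3, 224 of 1215 (18.4%, 16.4 to 20.7%). In all, the 989 summits lay in 923 intervals, of which 861 held 1, 59 held 2, 2 held 3 and 1 held 4. In 843 of these intervals at least 1 other DIG2 summit was paired with DIG1, and in 80 no summit was.

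What the DIG1 list held at the same place was read from its intervals and from its summit names, since the peak caller gives the summits of an interval the letters a, b, c in order of position. For 187 DIG2-only summits (18.9%, 16.6 to 21.5%) the summit base lay outside every DIG1 interval, a median of 384 bp beyond the nearest edge of the DIG1 interval that its own interval touched. The other 802 (81.1%, 78.5 to 83.4%) lay inside a DIG1 interval. At 556 of these 802 (69.3%, 66.0 to 72.4%) the DIG1 names skipped a letter: at least 1 was missing between the DIG1 summits listed on either side, before the first one, or after the only one where it carried the letter a. A skipped letter is read here as a summit that was named in that stretch of the DIG1 interval but is not in the list, and what removed it is not given in the labels. Every listed DIG1 summit has a −log10 p of at least 16. Among paired summits, a DIG1 letter was skipped at 819 of 12827 (6.4%). The rule gives every paired place a listed DIG1 summit, so nothing is read from that contrast. The whole lists were counted by interval instead of by place, over intervals with lettered summits only. There 1532 of 2909 DIG1 intervals (52.7%) and 1052 of 3180 DIG2 intervals (33.1%) showed an unlisted letter.

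The remaining 246 DIG2-only summits inside DIG1 intervals were of 3 kinds. For 116 the DIG1 interval had a single summit without a letter, for 44 the DIG1 letters ran on without a break, and for 86 the place lay beyond the last listed letter, where a missing summit would leave no trace. The first 2 kinds held stronger DIG2 summits than the rest. Their median folds were 3.04 (quartiles 2.47 and 4.81) and 3.53 (2.65 and 5.20), against 2.46 (2.26 and 2.78) where a letter was skipped, 2.52 (2.28 and 2.88) beyond the last letter and 2.5 (2.29 and 2.88) outside DIG1 intervals. The same 2 kinds also lay nearer to a DIG1 summit, at a median of 291 and 261.5 bp. In the other groups, in the same order, the median distance was 515, 505.5 and 697 bp. Strength and distance were not separated.

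**Figure D3:**
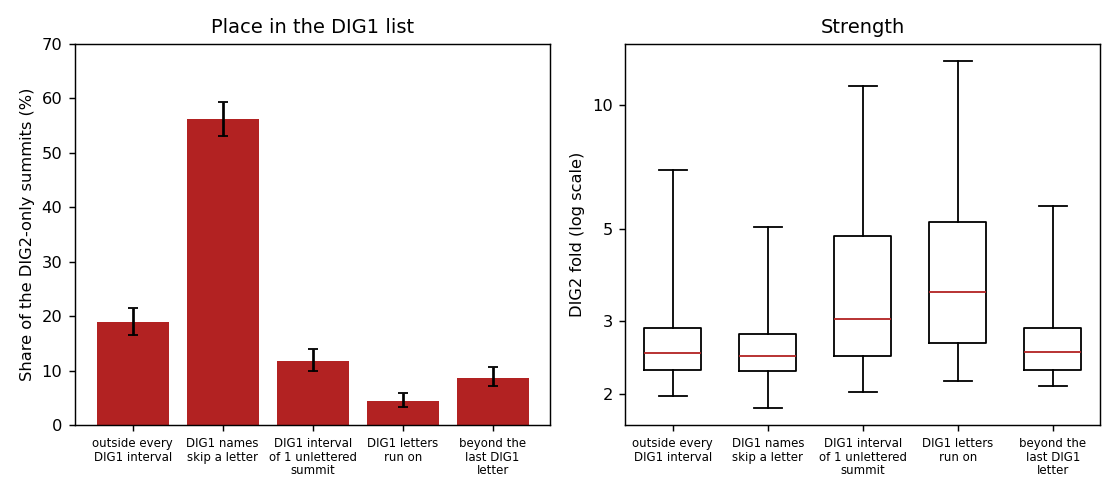
Left, share of the 989 DIG2-only summits by what the DIG1 list holds at their place, in percent with 95% Wilson intervals; right, their DIG2 fold on a log axis (box, quartiles; line, median; whiskers, lowest and highest). The group with a skipped DIG1 letter is the most common (56.2%), and the highest folds are in the groups where the DIG1 interval has 1 unlettered summit (up to 11.2) or unbroken letters (up to 12.8).

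In 59 cases the DIG2-only summit is called displaced here, and in the others added. In a displaced case the nearest DIG1 summit had no DIG2 partner either, and each was the closest of the other list. These 59 (5.97%, 4.65 to 7.62%) lay a median of 206 bp (highest 848 bp) from that DIG1 summit and all lay inside its interval. They had a median fold of 3.0, and 42 of them were the strongest DIG2 summit of their interval. Of these 42, 36 were the only DIG2 summit there, so they had no other to exceed. Of the 930 added summits 77 were the strongest, 38 of them as the only DIG2 summit of their interval. The 930 had a median fold of 2.51 and a median distance of 529 bp. A DIG1 letter was skipped at 58.0% of added summits (54.8 to 61.1%) and 28.8% of displaced ones (18.8 to 41.4%). Both names therefore refer to listed DIG1 summits only. Displaced summits made up 8 of the 10 strongest DIG2-only summits and 24 of the 100 strongest.

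The strongest DIG2-only summit lay 1426 bp from ATCTH (AT2G25900), also called ATTZF1, a tandem zinc-finger protein gene. It stood alone in its interval (chromosome 2, 11039162 to 11040456, TAIR10), at position 11039905, with a fold of 10.5 and rank 331 in the DIG2 list. The DIG1 list had a single summit of fold 9.06 (rank 294 in its own list), 209 bp away, in an interval with almost the same bounds. At ACR5 (AT2G03730), an ACT-domain repeat gene, DIG2 had a pair of summits, of fold 9.42 at 129 bp outside the gene and fold 4.90 at 796 bp outside it. A single DIG1 summit of fold 8.83 lay between them, 235 bp from the first and 432 bp from the second, so both were DIG2-only. Only 1 other pair of neighbouring DIG2-only summits, near AT3G58030, had exactly 1 DIG1 summit and no DIG2 summit between them.

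At NAC3 (AT3G29035), also named ORS1, a NAC transcription factor gene linked to leaf senescence, the DIG2 summit (fold 11.2, rank 975) lay 403 bp outside the gene and 218 bp from the DIG1 summit (fold 7.60). The P450 gene CYP71B7 (AT1G13110) had a DIG2 summit of fold 9.46 at 168 bp outside the gene, and the DIG1 summit, of fold 5.28, stood 160 bp away. A weaker pair in the same intervals, 907 bp away for DIG2 with a fold of 3.17 and 911 bp away for DIG1 with a fold of 2.65, coincided. So in that interval the weaker summits matched while the stronger ones did not. A like arrangement was seen at GPAT3 (AT4G01950), a glycerol-3-phosphate acyltransferase gene, with a DIG2-only summit of fold 9.33 at 206 bp from a DIG1 summit of fold 5.30.

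The highest fold of all, 12.8 (rank 557), belonged to a summit 2279 bp from AT4G19420, the pectin acetylesterase gene PAE8, in a DIG2 interval of 4 summits that touched 3 DIG1 intervals. The other 3 DIG2 summits there had folds of 3.60, 3.30 and 5.53 and each had a DIG1 partner. The DIG1 summit nearest to the strong one lay 224 bp away with a fold of 5.20. Near AT3G18050 the summit of fold 9.03 lay 155 bp from a DIG1 summit of fold 6.5, and inside RPN12b (AT5G42040), a proteasome subunit gene beside ABIL4, one of fold 7.58 lay 168 bp from a DIG1 summit of fold 6.31.

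The 2 added summits among the 10 strongest sat beside a paired summit within the same interval. Near AT3G19680, DIG2 had summits of fold 11.2 and 9.02, 270 bp apart, over a single DIG1 summit of fold 7.15 that lay 228 bp from the weaker one. Beside CCX4 (AT1G54115), a cation/calcium exchanger gene, the DIG2 folds were 9.55 and 8.58, at 326 bp from each other, over 1 DIG1 summit of fold 6.54. In both intervals the DIG1 list named no second summit.

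**Figure D4:**
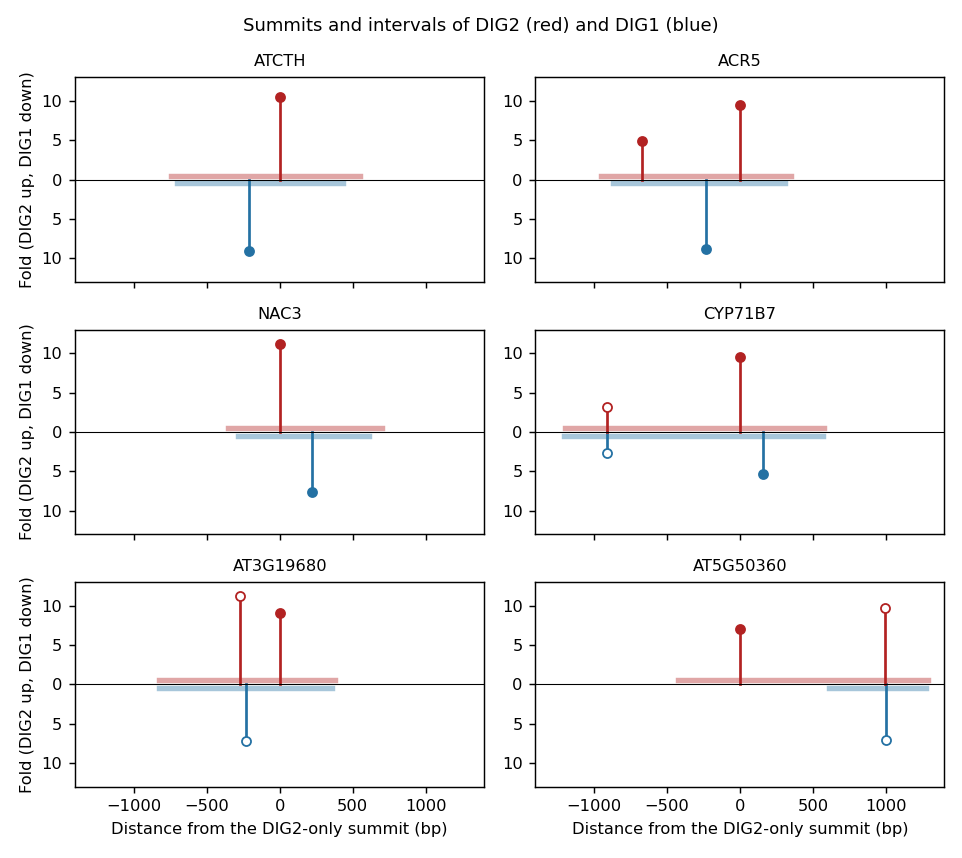
Summits (stems, height is the authors' fold; DIG2 upward in red, DIG1 downward in blue) and intervals (horizontal bars) at 6 loci, by distance in bp from the DIG2-only summit; filled circles have no summit of the other list within 150 bp and open circles have one. The summits at ATCTH, NAC3 and CYP71B7 are offset by 209, 218 and 160 bp within intervals that nearly coincide, while at AT5G50360 the DIG1 interval does not reach the DIG2-only summit. Folds of the 2 lists are not comparable with each other.

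Outside every DIG1 interval, the strongest DIG2-only summit lay inside AT5G50360, the locus that the label of the DIG2 sample gives for DIG2 itself. It stood at position 20505786 of chromosome 5, 568 bp from the nearer end of the gene, with a fold of 6.99 (rank 3622), in an interval from 20505366 to 20507076. That interval had 1 further DIG2 summit, of fold 9.71, outside the gene and 993 bp away, and a DIG1 summit of fold 7.04 lay 8 bp from the latter. No DIG1 summit lay inside AT5G50360. Among the 187 summits outside DIG1 intervals the next one by fold reached 4.80, inside LOG7 (AT5G06300), a cytokinin-activating enzyme gene. At AT3G45810, the locus in the label of the DIG1 sample, neither list had a summit inside the gene or at its ends. The gene reference names this locus RbohJ, and whether it is the DIG1 gene was not checked. Nothing about DIG1 at its own gene is therefore read from this absence. The introduced DIG2 fusion and the endogenous gene cannot be told apart in these lists.

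The summits farthest from any DIG1 summit were weak. The farthest lay 1725 bp away, inside TGA9 (AT1G08320), a bZIP transcription factor gene, with a fold of 2.25 (rank 15453). A summit near AT2G22760 had a fold of 2.89 at 1654 bp, and one 17 bp from the end of BOR1 (AT2G47160), a boron exporter gene, had a fold of 2.74 at 1404 bp. All 3 were outside DIG1 intervals. The other 2 of the 5 farthest, inside PR4, a pathogenesis-related gene (fold 2.16), and beside AT2G45670 (fold 2.25), were inside DIG1 intervals whose names skipped a letter there.

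The 62 intervals with 2 or more DIG2-only summits had a median width of 1797 bp (849 to 4641 bp), and the 861 with 1 had a median width of 1180 bp (278 to 6323 bp). The only one with 4 spanned chromosome 3, 4118130 to 4122106, between AT3G12915 and BRG3 (AT3G12920), and held 7 DIG2 summits. Its 3 central summits (folds 7.84, 4.84 and 8.31) had DIG1 partners with the letters c, d and e, and the outer ones, with folds of 2.34 and 3.65 on one side and 2.54 and 2.29 on the other, did not. The letters a and b were missing from the DIG1 list. Near AT4G29905 and ORC5, an origin recognition complex gene, 3 of 6 DIG2 summits were unpaired, with folds of 5.88, 1.97 and 2.2. In the interval near TSD2 and AT1G78260 the 3 unpaired summits had folds of 2.56, 2.3 and 2.18. Between XYL4, a beta-xylosidase gene, and EMB3144 the unpaired summits had folds of 2.34 and 8.67, in the same interval as a paired summit of fold 15.3 (rank 80).

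Within intervals, 903 DIG2-only summits could be set beside a paired DIG2 summit of the same interval. The fold of the DIG2-only summit was a median of 0.503 times that of the strongest paired one (quartiles 0.334 and 0.701), with median folds of 2.52 and 5.40. It was the higher of the 2 in 44 of 903 cases. The separation was a median of 578 bp (quartiles 443.5 and 773.5 bp).

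**Figure D5:**
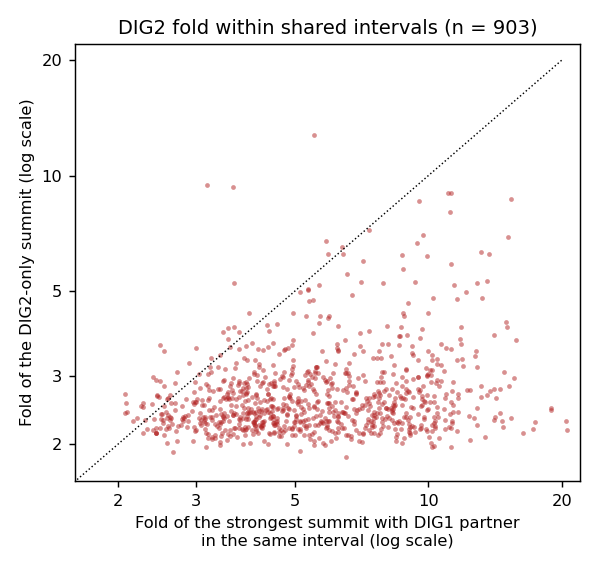
Fold of each of 903 DIG2-only summits (vertical) against that of the strongest paired DIG2 summit in the same interval (horizontal), both on log axes; the dotted line marks equal folds. In 44 cases the point lies above the line, and the median folds are 2.52 for DIG2-only and 5.40 for paired summits.

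Relative to genes, the share of DIG2-only summits inside protein-coding genes was 27.7% (25 to 30.6%). It was 27.5% for paired summits (26.7 to 28.3%) and 31.8% for summits in intervals without DIG1 (30.04 to 33.5%). Among paired summits that were not the strongest of their interval it was lower, at 23.4% (21.6 to 25.2%). Farther than 1000 bp from any gene end and outside genes lay 25.8% of DIG2-only summits (23.2 to 28.6%), 22% of paired ones (21.3 to 22.8%) and 23.7% of those without DIG1 overlap (22.1 to 25.3%). For paired summits that were not the strongest of their interval this share was 29.8% (27.9 to 31.7%), so the order of the classes depended on which paired summits were used.

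The far share also depended on strength. From the strongest to the weakest quintile of the DIG2 list it was 15.0%, 21.95%, 31.8%, 25.2% and 25.9% for DIG2-only summits. For paired summits it was 26.7%, 23.0%, 21.0%, 18.8% and 13.4%. Thus the DIG2-only share was the lower one in the strongest quintile and in quintile 2, and the higher one in the weaker 3. The strongest quintile held only 20 such summits (15.0%, 5.24 to 36.0%, against 25.2 to 28.3%). These intervals cover counting error only, and their overlap is not a test. In the weakest quintile the intervals were 22.3 to 29.8% and 11.4 to 15.8%, and the summits without DIG1 overlap were at 21.5% (19.7 to 23.5%). The paired summits of that quintile lay in narrow intervals, with a median width of 422 bp against 1209 bp. Of them 18.6% lay in intervals with 2 or more summits, against 93.5% of the DIG2-only ones. The part that width and summit number have in the difference was not tested.

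Set beside the strongest paired summit of the same interval, the DIG2-only summit was inside a gene while the paired one was outside in 145 of 903 cases, and the reverse held in 98. Both were outside in 566 and both inside in 94. For 227 of the 903 (25.1%) the gene that held the summit or had the nearest end was not the same as for the paired summit. The DIG2-only summit was nearer to a gene end in 458 cases and farther in 445.

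At the level of genes, a DIG2-only summit lay at an end of 746 protein-coding genes, counting a summit up to 1000 bp beyond either end of a gene and up to 200 bp into it. These were 2.72% of 27444 genes. Any DIG2 summit lay at the ends of 11045 genes (40.2% of all), so 6.75% of these had a DIG2-only summit. At 645 of the 746 a DIG1 summit also lay at an end of the gene, and at the remaining 13.5% none did. The strongest of the latter, chosen after their values were seen, included ZWI, which encodes a calmodulin-binding kinesin (fold 4.39, summit 893 bp outside the gene), HSPRO2 (fold 3.56) and CPK13, a calcium-dependent kinase gene (fold 3.31, 121 bp outside). The summit counted at ZWI was nearer to AT5G65925, at 81 bp. A DIG1 summit of fold 3.70 lay 292 bp from it, beyond the window counted for ZWI. HMGS, which encodes the HMG-CoA synthase of the mevalonate pathway, had a fold of 3.91 at 46 bp inside the gene end, where a DIG1 summit, 189 bp away, was just beyond the counted window. GDH2, a glutamate dehydrogenase gene, had a fold of 3.49. Of 1637 genes with a DIG2 but no DIG1 summit at an end, 6.17% had a DIG2-only summit, close to the 6.75% of all genes with a DIG2 summit.

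Genes of 9 hormone, stress, clock and light lists were read against that background. Of their 150 genes 119 had a DIG2 summit at an end, and 11 of these 119 (9.24%) had a DIG2-only summit, against 6.75% of all genes with a DIG2 summit. None lay at an end of the 14 ABA receptor genes or the 10 SnRK2 kinase genes, of which 10 and 8 had a DIG2 summit, nor at the 12 JAZ repressor genes, of which 10 did. With a background of 6.75% and so few genes per list, these absences are not read as a lack. Of the 14 cytosolic ribosomal protein genes that the symbols gave, 1 had a DIG2 summit and none a DIG2-only one.

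Of the 9 clade A PP2C phosphatase genes, whose products restrain ABA signalling, 8 had a DIG2 summit and 2 a DIG2-only one. With counts this small, nothing is read from that share. At HAB1 the DIG2-only summit had a fold of 3.18 and lay 842 bp outside the gene and 436 bp from a DIG1 summit. At PP2CA, also called AHG3, its fold was 2.88 at 114 bp outside, in an interval whose strongest paired summit had a fold of 10.4, while the highest DIG2 fold at this gene was 12.3.

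Of 23 ABA-related transcription factor genes, 19 had DIG2 summits and 4 a DIG2-only one, a small count from which nothing is read either. GBF2 (AT4G01120), a G-box binding bZIP gene, had the strongest of the 11: its fold of 6.76 (rank 2966) exceeded the 5.87 of the paired summit 230 bp away, and the DIG1 list had a single summit there, of fold 4.66 and 251 bp from it. Those at MYB96, a regulator of cuticular wax and drought response, and HB5, a homeodomain-leucine zipper gene, had folds of 2.6 and 2.7, and DIG1 letters were skipped at both. At HSFA6B, a heat shock factor gene, the fold was 2.28 beside a paired summit of fold 17.4 (rank 28), with no DIG1 letter skipped.

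In the other lists 5 genes had one. They were 1 of 12 dehydration and cold effector genes and 1 of 13 clock genes with a DIG2 summit. For light signalling it was 1 of 17 such genes, and for Aux/IAA repressors 2 of 22. At the dehydrin gene ERD10 the DIG2-only summit stood 2 bp outside the gene end with a fold of 2.48. A DIG1 summit of fold 15.2 was 496 bp away, with a paired DIG2 summit of fold 18.9 (rank 11). GI, the clock gene GIGANTEA, had one of fold 3.49 just inside its end, 897 bp from a DIG1 summit of fold 9.86. At HFR1, a bHLH gene of shade and far-red responses, the fold was 5.18 (rank 4069), 368 bp from DIG1 with no letter skipped. The auxin repressor genes IAA7 and IAA14 had DIG2-only folds of 3.03 and 3.05. At IAA14 this was slightly above the paired summit of the interval (3.04).

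Other strong DIG2-only summits inside or near genes of known function were chosen after their values were seen. Near FBH3, a bHLH gene of flowering control, the fold was 6.68 at 79 bp outside the gene, and near GID1B, a gibberellin receptor gene, it was 6.19 at 838 bp. TEM1, a repressor of flowering, held one of fold 5.25 inside the gene, 156 bp from a DIG1 summit. TET2, a tetraspanin gene, held one of fold 6.25 inside it, in the same interval as a paired summit of fold 13.7. Of 326 miRNA genes, 80 had a DIG2 summit at an end and 5 a DIG2-only one, which is 6.25% of the 80, near the 6.75% of protein-coding genes. Their folds were 2.93 at MIR5014a, 2.19 at MIR5651, 2.46 at MIR2936, 2.47 at MIR164b and 2.33 at MIR391.

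The rule was also applied with the lists exchanged. Of 13459 DIG1 summits, 279 lay in a shared interval with no DIG2 summit within 150 bp, against 989 in the DIG2 direction. They lay closer to the other list, a median of 311 bp from a DIG2 summit, and 267 of the 279 (95.7%, 92.6 to 97.5%) lay inside a DIG2 interval. The 59 displaced pairs, a median of 206 bp apart, are counted in both directions and are a larger part of the smaller set. At 51 of these 267 places (19.1%, 14.8 to 24.2%) the DIG2 names skipped a letter, against 69.3% in the DIG2 direction. Over the whole lists the shares of lettered intervals with an unlisted letter were 33.1% for DIG2 and 52.7% for DIG1, so these places had unequal backgrounds. The lists differ in length and their depths are unknown, so the difference between 279 and 989 was not tested.

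Membership followed the strength limit of the lists. When both lists were restricted to summits with a −log10 p of at least 30, 955 DIG2 summits met the rule, of which 396 were among the 989 and 559 were not.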

How the data were processed

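Chromatin of whole seedlings was analysed from 1 peak list for DIG1 and 1 for DIG2. Per the submitters' processing notes, Bowtie 0.12.7, the TAIR10 build and MACS2 were used; the sources used here do not give the MACS2 version, which library served as control, the read depth, or whether replicates were pooled. The deposited lists give, per summit, a fold enrichment (a ratio), −log10 p and −log10 q values, and a score; the score and −log10 q were not used. An interval is repeated once per summit.

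Classes, distances and letters in summit names were computed with Python 3.11.15, pandas 2.3.3 and scipy 1.17.1. The rule was tested on simulated data, and its count was recounted with bedtools 2.31.1. Genes were named and located with the RefSeq table for TAIR10.1, which gives no strand or exons, so both gene ends were treated alike and exons, introns and promoters were not told apart. Shifting summits by steps of 50 bp gave the fewest inside genes at a shift of 0 for both lists. No genome sequence was used here, so no sequence is shown and the motif search was not run. Ranks are by −log10 p within a list.

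Members, gene lists and tests were chosen with earlier results of these data known. Named genes were those at the 10 strongest members, the 5 farthest from DIG1, the 5 intervals with the most members, 3 on each side of 150 bp, and up to 3 per gene list. The rest fall outside these rules and were named after seeing values. They include HSFA6B, LOG7, AT3G58030, the miRNA genes and the labelled loci. Alternatives varied the distance, overlap, strength limit and gene window.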

Additional observations from a re-analysis of the deposited data

How the results depend on the processing

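Of 44 alternatives over 6 results, 26 stayed within 1.5 times the count or within the 95% interval of the value; the other 18 follow. The number of DIG2-only summits, 989, was 461 with a −log10 p of at least 30 asked of DIG2 alone, 497 with the DIG2 list shortened to the length of the DIG1 list, and 433 without the summits at which a DIG1 letter was skipped. The last alternative was chosen after seeing the data. Under these 3 settings the median fold was 2.97, 2.92 and 2.66; with both lists at 30 or more it was 3.16, and with a distance of 300 bp 2.48. The share that was not the strongest of its interval was 83.9% and 84.5% under the first 2 of those settings, 90.4% with both lists at 30 or more, 83.4% with 100 bp and 91.4% with 300 bp. The share inside a DIG1 interval was 78.5% with 300 bp and 56.8% without skipped letters, where the share inside genes was 24.7%. The fall to 56.8% is set by that alternative, since letters were read only for summits inside DIG1 intervals. Limits on DIG2 strength likewise raise the median fold by their own working. Genes with a DIG2-only summit numbered 321 for 500 bp outside only and 1642 for 3000 bp outside to 500 bp inside. The motif alternatives were not run. No paired analysis was possible because each group has 1 sample. Read depth is unknown, which limits every comparison between the lists.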
